A study of Mus musculus with 12 samples.

Results

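Vitamin A acts in cells as retinoic acid, and 9 genes of its supply and sensing were followed in mouse aortic smooth muscle cells that lack cystathionine gamma-lyase. They were taken by symbol from the deposited table of 29462 genes, with the row of highest mean where a symbol stood more than once, and each of the 9 had 1 row. They comprise Aldh1a1, Aldh1a2, Aldh1a3, Rdh10, Dhrs3, Stra6, Crabp1, Crabp2 and Rarb. RNA came from primary cultures of global CSE-knockout mice (KO, 6 libraries) and of C57BL/6J mice (WT, 6 libraries). Cystathionine gamma-lyase, CSE, is encoded by Cth and makes hydrogen sulfide. Both genotypes were given angiotensin II, a vasoconstrictor peptide, at 1 uM for 24 h, so what the peptide itself does to these genes was not analysed here. The cells were kept in DMEM with serum. The labels give neither the age nor the sex of the mice, nor whether the 6 libraries of a genotype were grown from separate animals. The p-values therefore measure the spread among these libraries, which may be technical.

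Retinol reaches cells on a carrier protein and can enter through the membrane receptor STRA6. RDH10 oxidises it to retinaldehyde, DHRS3 turns retinaldehyde back into retinol, and the retinaldehyde dehydrogenases ALDH1A1, ALDH1A2 and ALDH1A3 oxidise retinaldehyde irreversibly to retinoic acid. CRABP1 and CRABP2 bind retinoic acid in the cytosol, and receptors such as RARB, paired with a retinoid X receptor, carry its signal on DNA. Dhrs3, Stra6 and Rarb are themselves known to be induced by retinoic acid in several cell types. In arteries, retinoic acid is known as a regulator of smooth muscle growth and differentiation.

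The Rarb promoter is shown because it is known for a response element that retinoic acid receptors bind, and the promoters of Aldh1a2 and Dhrs3 because these members were far higher in most KO libraries. Each line gives the 250 bases before a transcript start, from RefSeq on GRCm38.p6, read 5′ to 3′ on the gene's strand. They lie at chr14:16575477-16575726 on the minus strand for Rarb, chr9:71215539-71215788 on the plus strand for Aldh1a2 and chr4:144892577-144892826 on the plus strand for Dhrs3. Capitals mark receptor half-sites, searched on both strands as any of 4 words. The first word was GGTTCA and the second was AGTTCA. The third word was AGGTCA and the last was GGGTCA.
Rarb: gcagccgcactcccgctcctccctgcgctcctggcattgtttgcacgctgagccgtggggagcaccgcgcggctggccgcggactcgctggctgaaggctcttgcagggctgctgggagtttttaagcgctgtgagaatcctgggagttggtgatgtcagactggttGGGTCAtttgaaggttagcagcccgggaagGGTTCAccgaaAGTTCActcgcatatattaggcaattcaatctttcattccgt
Aldh1a2: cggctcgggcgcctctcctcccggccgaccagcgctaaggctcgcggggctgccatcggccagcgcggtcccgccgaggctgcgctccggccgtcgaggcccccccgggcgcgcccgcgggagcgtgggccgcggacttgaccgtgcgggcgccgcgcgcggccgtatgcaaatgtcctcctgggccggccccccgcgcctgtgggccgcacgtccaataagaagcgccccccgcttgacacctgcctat
Dhrs3: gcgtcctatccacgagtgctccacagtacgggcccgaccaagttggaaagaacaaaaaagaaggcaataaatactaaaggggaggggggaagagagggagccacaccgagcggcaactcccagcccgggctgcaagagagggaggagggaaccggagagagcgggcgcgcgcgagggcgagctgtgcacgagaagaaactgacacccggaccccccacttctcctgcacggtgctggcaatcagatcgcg

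The Rarb window held 3 half-sites, of which the first and the second word stood as a direct repeat with 5 bases between them, at 53 to 37 bases before the start. Such a repeat of any 2 of the 4 half-sites was found in 0.0883% of 32851 windows of the same length, whereas 38.6% held at least 1 half-site. The Aldh1a2 window and the Dhrs3 window shown held no half-site. RefSeq windows, 12 in all, were matched for 6 of the 9 members, and outside Rarb the only half-site lay in 1 window of Aldh1a1. These matches describe letters only, and no binding was measured.

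Values are FPKM, fragment counts scaled for gene length and for sequencing depth by the authors, which allows levels of different genes to be compared within a library. Depth in reads is unknown. The deposited FPKM of a library added up to between 255538 and 281432. KO replicates 5 and 6 stood apart from the other KO libraries: across tested genes they correlated with KO replicates 1 to 4 at 0.947 to 0.96, where KO replicates 1 to 4 correlated among themselves at 0.993 to 0.995 and the WT libraries at 0.992 to 0.995. For that reason each member's result is also given with KO replicates 1 to 4 only. This set was chosen after the data were seen, so its p-values are descriptive. Cth itself reached at most 0.02 FPKM in KO libraries and 0.08 FPKM in WT libraries (exact permutation p = 0.143, two-sided), so its level does not check the genotype labels. The female transcript Xist was at 2.31 to 3.53 FPKM in KO replicates 1 to 4. In KO replicates 5 and 6 it was at 0.31 and 0.63 FPKM, and in WT libraries at most 0.04 FPKM. The Y-linked Ddx3y was at 3.49 to 6.78 FPKM in KO libraries and 9.87 to 11.81 FPKM in WT libraries. The sex of the cells and the genotype therefore cannot be told apart. The part of sex in the split among KO libraries was not tested. Of the markers that define contractile smooth muscle, Myh11 was at most 0.03 FPKM in every library, whereas Acta2 lay at 75.28 to 145.52 FPKM in KO libraries and 111 to 140.4 FPKM in WT libraries.

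Among the retinaldehyde dehydrogenases, Aldh1a2 was the most abundant RNA in KO replicates 1 to 4, and Aldh1a1 in KO replicates 5 and 6 and in all WT libraries. Aldh1a2 RNA was near 0 in WT and higher in all 6 KO libraries, whereas Aldh1a1 and Aldh1a3 RNA were lower in KO. Rdh10 RNA was higher in KO. Dhrs3 and Stra6 rose as well, with high values in KO replicates 1 to 4 and WT-like values in KO replicates 5 and 6. The retinoic acid binding proteins were barely detected in either genotype.

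**Figure D1:**
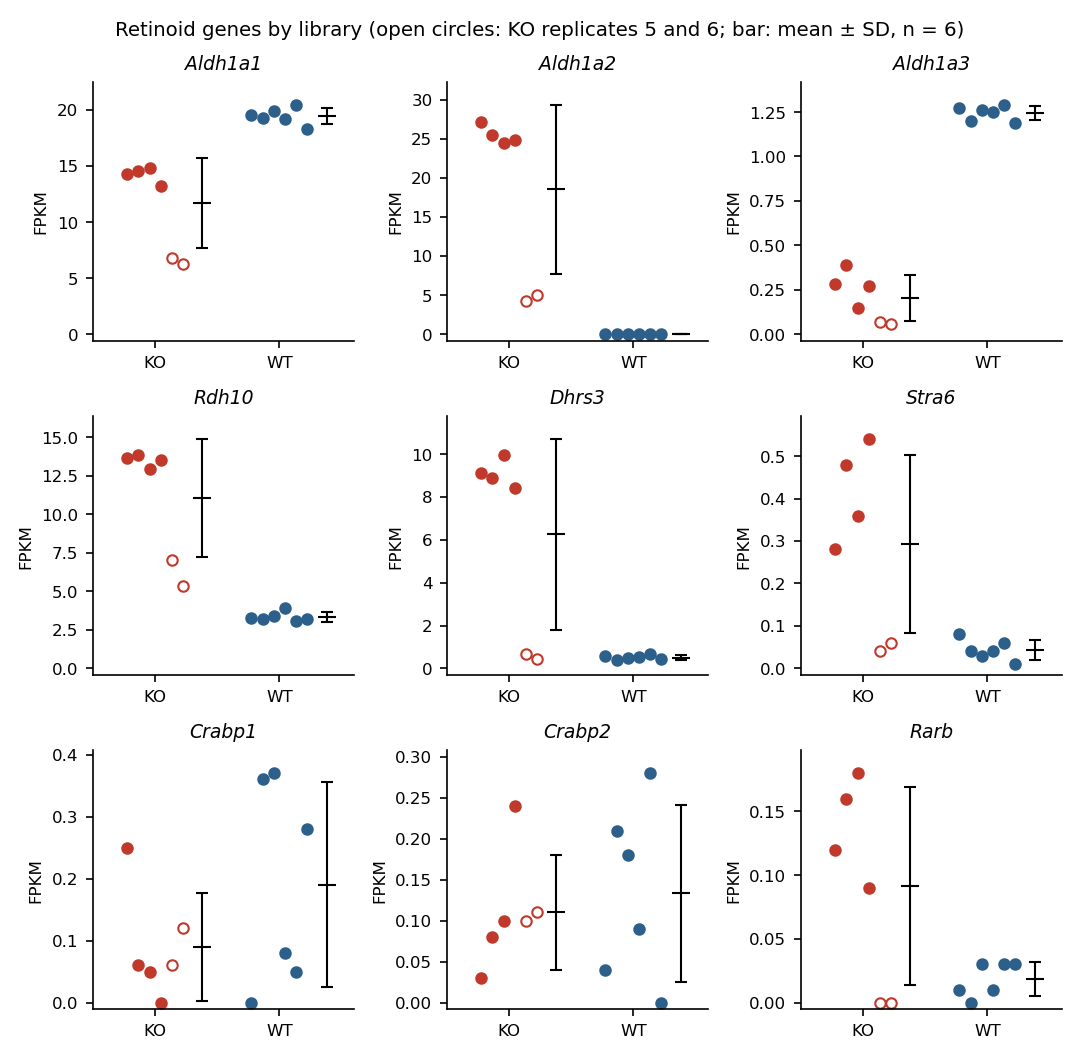
FPKM of the 9 retinoid genes in each library, KO at left and WT at right of each panel, on a linear axis of its own. Filled red circles are KO replicates 1 to 4, open red circles KO replicates 5 and 6, blue circles WT, and the black bar is the mean ± SD of 6 libraries. Aldh1a2 and Rdh10 lie above WT in all 6 KO libraries, Aldh1a1 and Aldh1a3 below, and the open circles of Dhrs3 and Stra6 lie among the WT values.

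For the 11831 genes that reached 1 FPKM in 6 or more libraries, log2(FPKM + 1) was compared with limma, a linear model that shares variance estimates between genes. The Benjamini-Hochberg adjustment covered that whole set. Of these genes, 63.5% passed an adjusted p of 0.05, with 32.6% higher and 30.9% lower in KO. Such a call is therefore common, and the size of a change says more here than its p. Aldh1a1, Aldh1a2, Aldh1a3 and Rdh10 passed the filter on low values. Aldh1a2 passed it through its KO values alone and Aldh1a3 through its WT values alone, so a difference in these 2 was bound up with the filter, and their p-values come from a fit of all 29462 genes, of which 34.1% passed. The other 5 members were compared by a two-sided exact permutation test over the 924 assignments of the libraries, whose smallest possible p is 0.00216. Of 17229 genes below the filter, that test gave a p of at most 0.05 for 20.4%, with 12.7% higher and 7.7% lower in KO. In 9.66% of them the 6 KO values lay wholly above or wholly below the 6 WT values, which held for none of the 5 members.

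Aldh1a2, the dehydrogenase that makes most retinoic acid in the early embryo, was at 27.1, 25.44, 24.41, 24.87, 4.29 and 4.97 FPKM in KO replicates 1 to 6. The WT libraries, in order of replicate, held only 0.04, 0.04, 0.02, 0.02, 0.02 and 0 FPKM. Every KO library thus lay above every WT library, and KO replicates 5 and 6 held less than the other KO libraries. The mean was 18.5 ± 10.8 FPKM in KO and 0.0233 ± 0.0151 FPKM in WT (SD, n = 6 each). On the log2(FPKM + 1) scale, Aldh1a2 rose by 3.95 ± 0.44 with all genes of the table in the fit, where the filter plays no part (SE, limma adjusted p = 2.3e-05). That scale understates a change from so low a level, and with a pseudocount of 0.01 in place of 1 the difference was 8.93. With KO replicates 1 to 4 only it was 4.69 (exact permutation p = 0.0048). The WT values lie within a few steps of the 0.01 FPKM to which the table is rounded, so the 793-fold ratio of the means is loose. The gene lies on chromosome 9 from 71215789 to 71296243, plus strand (GRCm38, GENCODE M21).

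Aldh1a1, the dehydrogenase also known as a marker of progenitor cells, was at 14.32, 14.57, 14.86, 13.2, 6.83 and 6.29 FPKM in KO replicates 1 to 6. The 6 WT libraries were at 19.53, 19.27, 19.91, 19.17, 20.44 and 18.33 FPKM, in order of replicate. All KO libraries lay below all WT libraries, with KO replicates 5 and 6 the lowest. The mean was 11.7 ± 4.01 FPKM in KO and 19.4 ± 0.716 FPKM in WT (SD, n = 6 each), and the gene fell by 0.76 on the log2 scale (SE 0.19, limma adjusted p = 0.0037). With KO replicates 1 to 4 only, it fell by 0.42 (limma adjusted p = 6.4e-07), so the size of the fall depended on KO replicates 5 and 6. Aldh1a1 lies on chromosome 19 from 20492715 to 20643465, plus strand, and the antisense C730002L08Rik that overlaps it reached at most 0.04 FPKM.

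Aldh1a3, the third enzyme of this group, was at 0.28, 0.39, 0.15, 0.27, 0.07 and 0.06 FPKM in KO replicates 1 to 6. It reached 1.27, 1.2, 1.26, 1.25, 1.29 and 1.19 FPKM in WT replicates 1 to 6. WT libraries were close to each other, all KO libraries lay below them, and KO replicates 5 and 6 were again lowest. Its mean was 0.203 ± 0.131 FPKM in KO and 1.24 ± 0.0398 FPKM in WT (SD, n = 6 each), 6.11-fold lower in KO. With all genes of the table in the fit it fell by 0.91 on the log2(FPKM + 1) scale (SE 0.07, limma adjusted p = 6.8e-07). With a pseudocount of 0.01 it fell by 2.84, and with KO replicates 1 to 4 only by 0.82 with a pseudocount of 1. Aldh1a3 lies on chromosome 7 from 66390890 to 66427517, minus strand.

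Because FPKM is scaled by length, the 3 dehydrogenases can be set side by side as RNA. Their summed level was 38.34 to 41.7 FPKM in KO replicates 1 to 4, 11.19 and 11.32 FPKM in KO replicates 5 and 6, and 19.52 to 21.75 FPKM in WT libraries. The KO libraries therefore lay on both sides of WT in the sum, while they differed from WT in one way in its make-up. Aldh1a2 was 61.9% to 65% of the sum in KO replicates 1 to 4 and 38.3% to 43.9% in KO replicates 5 and 6, against 0% to 0.195% in WT. Aldh1a1 was 34.3% to 61% of the sum in KO libraries and 93.7% to 94% in WT libraries. Aldh1a3 was at most 0.965% of it in KO and 5.85% to 6.12% in WT. These shares describe the libraries and were not tested.

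**Figure D2:**
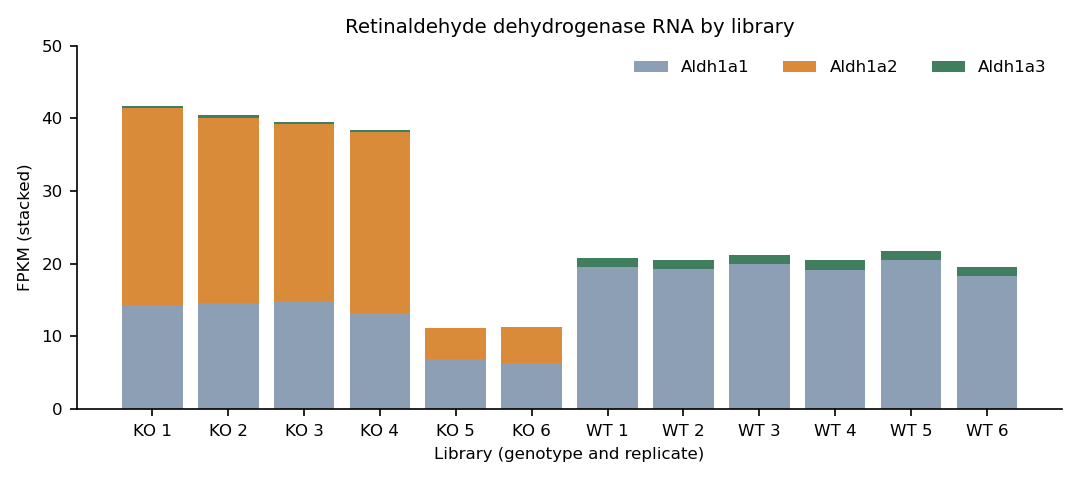
Stacked FPKM of Aldh1a1, Aldh1a2 and Aldh1a3 in each library on a linear axis from 0, the 6 KO libraries at left and the 6 WT libraries at right. Aldh1a2 forms the larger segment in KO replicates 1 to 4 and is not visible in WT, and the total of KO replicates 5 and 6, at 11.19 and 11.32 FPKM, is lower than that of any WT library.

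Rdh10, the retinol dehydrogenase that carries out the first oxidation step, was at 13.67, 13.86, 12.91, 13.48, 7.03 and 5.33 FPKM in KO replicates 1 to 6. In WT replicates 1 to 6 it was at 3.28, 3.18, 3.38, 3.91, 3.04 and 3.23 FPKM. All KO libraries lay above WT, KO replicates 5 and 6 by less than the others. The mean was 11.1 ± 3.82 FPKM in KO and 3.34 ± 0.303 FPKM in WT (SD, n = 6 each), 3.31-fold higher in KO. Rdh10 rose by 1.40 ± 0.20 on the log2 scale (SE, limma adjusted p = 3.9e-05), and by 1.74 with KO replicates 1 to 4 only (limma adjusted p = 1.6e-11). It lies on chromosome 1 from 16105774 to 16133734, plus strand.

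Among the tested genes, 6.24% were called and at least 1 higher in KO on the log2 scale, as Rdh10 was. Aldh1a2 entered the tested set through its KO values alone, so it is not set against that share. A further 3.5% were called and at least 1 lower, which Aldh1a1 was not. For Aldh1a3 that size cannot be read on this scale, since its WT level is close to the pseudocount of 1, and with a pseudocount of 0.1 it fell by 2.27. In 46.4% of tested genes the 6 KO values lay wholly above or wholly below the 6 WT values. Aldh1a1 and Rdh10 were among these genes. For Aldh1a2 and Aldh1a3 the separation followed from passing the filter through 1 genotype alone, so it adds nothing for them.

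**Figure D3:**
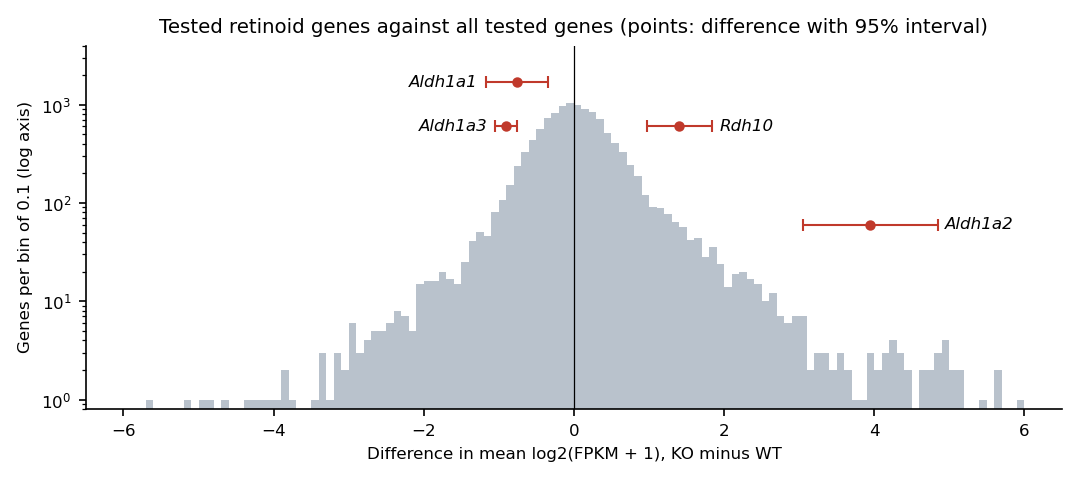
Histogram of the difference in mean log2(FPKM + 1), KO minus WT, over 11831 tested genes in bins of 0.1, with the number of genes on a log axis. Red points with bars give the 4 tested retinoid genes with their 95% limma intervals, and their height has no meaning. Aldh1a2 at 3.95 lies in the sparse right tail, Rdh10 at 1.40 at its shoulder, and Aldh1a1 at -0.76 and Aldh1a3 at -0.91 on the left flank. Aldh1a2 passed the filter through its KO values alone and Aldh1a3 through its WT values alone. The place of both in this set was therefore bound up with the filter.

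Dhrs3, the enzyme that works against Rdh10 by returning retinaldehyde to retinol, parted the KO libraries most sharply. It was at 9.14, 8.9, 9.97, 8.41, 0.67 and 0.44 FPKM in KO replicates 1 to 6. Among WT libraries it was at 0.56, 0.38, 0.47, 0.54, 0.67 and 0.42 FPKM, in order of replicate. KO replicates 1 to 4 were far above WT, and KO replicates 5 and 6 lay within the WT range. The mean was 6.25 ± 4.45 FPKM in KO and 0.507 ± 0.105 FPKM in WT (SD, n = 6 each), a difference of 1.85 on the log2(FPKM + 1) scale (exact permutation p = 0.0195). With all genes of the table in the fit it also passed (limma adjusted p = 0.019). With KO replicates 1 to 4 only the difference was 2.75 (exact permutation p = 0.0048, the smallest that 4 against 6 libraries can give). That set leaves out the KO libraries within the WT range and was chosen after the data were seen, so its p is no separate test. Dhrs3 lies on chromosome 4 from 144892827 to 144928209, plus strand.

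Stra6, the receptor for retinol bound to its plasma carrier, followed the same split at a much lower level. It was at 0.28, 0.48, 0.36, 0.54, 0.04 and 0.06 FPKM in KO replicates 1 to 6. In WT replicates 1 to 6 it was at 0.08, 0.04, 0.03, 0.04, 0.06 and 0.01 FPKM. KO replicates 1 to 4 lay above all WT libraries and KO replicates 5 and 6 among them. The difference was 0.29 on the log2(FPKM + 1) scale (exact permutation p = 0.0281) and 0.44 with KO replicates 1 to 4 only (exact permutation p = 0.0048). The smaller set leaves out the KO libraries that lie among WT and was chosen after the data were seen, so its p is no separate test. With all genes in the fit Stra6 passed (limma adjusted p = 0.028). The gene lies on chromosome 9 from 58063788 to 58153996, plus strand, and Ccdc33, which overlaps it on the other strand, reached at most 0.04 FPKM.

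Rarb, the retinoic acid receptor whose promoter is shown above, was at 0.12, 0.16, 0.18, 0.09, 0 and 0 FPKM in KO replicates 1 to 6. In WT replicates 1 to 6 it was at 0.01, 0, 0.03, 0.01, 0.03 and 0.03 FPKM. KO replicates 1 to 4 lay above every WT library, while in KO replicates 5 and 6 it was listed at 0. Over the 12 libraries Rarb differed by 0.10 on the log2(FPKM + 1) scale and missed the threshold (exact permutation p = 0.0628), as it did with all genes in the fit (limma adjusted p = 0.091). It passed without KO replicate 5 (exact permutation p = 0.022), without KO replicate 6 (exact permutation p = 0.022) and with KO replicates 1 to 4 only (0.16, exact permutation p = 0.0048). Each of these sets leaves out a KO library listed at 0, and the last was chosen after the data were seen. Their p-values are therefore no separate tests of Rarb. The FPKM values of Rarb are near the lowest the table can show. Rarb lies on chromosome 14 from 16430839 to 16819156, minus strand, where it overlaps Top2b on the plus strand. Top2b was at 8.08 to 12.08 FPKM in KO libraries and 13.13 to 14.23 FPKM in WT libraries, and as it is not stated whether counting used strand, a part of it in the Rarb values was not tested.

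Crabp1 and Crabp2, the binding proteins that hold retinoic acid in the cytosol and, in the case of CRABP2, pass it to receptors, were close to 0 in both genotypes. Crabp1 was at 0.25, 0.06, 0.05, 0, 0.06 and 0.12 FPKM in KO replicates 1 to 6 and at 0, 0.36, 0.37, 0.08, 0.05 and 0.28 FPKM in WT replicates 1 to 6. Crabp2 was at 0.03, 0.08, 0.1, 0.24, 0.1 and 0.11 FPKM in KO replicates 1 to 6 and at 0.04, 0.21, 0.18, 0.09, 0.28 and 0 FPKM in WT replicates 1 to 6. The groups overlapped for both, with no split between KO replicates 1 to 4 and KO replicates 5 and 6. The differences on the log2(FPKM + 1) scale were -0.12 for Crabp1 (exact permutation p = 0.249) and -0.03 for Crabp2 (exact permutation p = 0.682). With KO replicates 1 to 4 only they were -0.12 (exact permutation p = 0.27) and -0.02 (exact permutation p = 0.78). The sign of the Crabp2 difference changed with a pseudocount of 0.01 and without WT replicate 5, so no direction is given for it. Crabp1 lies on chromosome 9 from 54764748 to 54773110 and Crabp2 on chromosome 3 from 87948666 to 87953376, both on the plus strand.

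The order of mean levels differed between the genotypes. In KO it ran from Aldh1a2 (18.5 FPKM) through Aldh1a1 (11.7 FPKM), Rdh10 (11.1 FPKM) and Dhrs3 (6.25 FPKM) to the 5 members under 1 FPKM. In WT it ran from Aldh1a1 (19.4 FPKM) through Rdh10 (3.34 FPKM) and Aldh1a3 (1.24 FPKM) to the 6 members under 1 FPKM. Over the 6 KO libraries the ranges of Aldh1a2, Aldh1a1, Rdh10 and Dhrs3 overlapped. Within KO replicates 1 to 4 only those of Aldh1a1 (13.2 to 14.86 FPKM) and Rdh10 (12.91 to 13.86 FPKM) did. Within each of the 6 KO libraries Rdh10 was above Dhrs3, while Aldh1a2 was above Aldh1a1 in KO replicates 1 to 4 and below it in KO replicates 5 and 6. In WT the ranges of Aldh1a1, Rdh10 and Aldh1a3 did not overlap.

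In the authors' deposited table, which divides WT by KO, Aldh1a2, Rdh10, Dhrs3 and Stra6 were marked significant with negative log2 ratios, that is higher in KO. The authors' deposited table marked Aldh1a3 significant with a log2 ratio of 2.62, higher in WT. Aldh1a1, with a log2 ratio of 0.74 in the authors' deposited table, carried no mark, and neither did Rarb (q = 0.07), Crabp1 (q = 0.5) and Crabp2 (q = 0.87). That mark was given to 15% of the genes in the authors' deposited table.

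The rest of the pathway was read from 5 further lists of 74 genes, of which 63 had a row and 41 passed the filter. Of these 41, 20 rose and 10 fell in KO (limma adjusted p at most 0.05), with a median difference of 0.19 on the log2 scale against 0.01 over all tested genes. As shares of the 41, 48.8% were higher and 24.4% lower in KO, beside 32.6% and 30.9% of all tested genes. With KO replicates 1 to 4 only, 24 of 40 were called higher and 10 lower, or 85% called, where 76.4% of 11335 genes were called. All changes below are called by limma unless another test is named.

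Most tested carriers and storage genes rose. Of 10 with a row, 5 were tested, 4 rose and Rbp4, the plasma carrier of retinol, did not pass (limma adjusted p = 0.67). The median difference of the 5 was 0.76 on the log2 scale. Scarb1, a lipoprotein receptor that takes up carotenoids, rose 3.25-fold to 8.63 ± 0.475 FPKM in KO, against 2.66 ± 0.171 FPKM in WT (SD, n = 6 each), with KO replicates 5 and 6 at 8.21 and 8.75 FPKM. Dgat1, which can esterify retinol, rose 1.81-fold, and Fabp5, a fatty acid carrier that also binds retinoic acid, 1.79-fold. Lrat, the main retinol esterifying enzyme, was listed at 0 in all KO libraries and at up to 0.01 FPKM in WT.

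Other enzymes that act on retinol, retinaldehyde and related molecules were tested in part. Of 17 with a row, 8 were tested, 4 rose and none fell, with a median difference of 0.18 on the log2 scale. Rdh11, a retinaldehyde reductase, rose 1.36-fold (limma adjusted p = 4e-05), Retsat, retinol saturase, 1.27-fold (limma adjusted p = 0.00054) and Rdh14 1.57-fold (limma adjusted p = 0.00087). Dhrs4, the fourth, rose 1.16-fold (limma adjusted p = 0.026). The 9 below the filter were all under 1 FPKM in every library. By exact permutation 2 of them were higher and 1 was lower in KO, beside 12.7% and 7.7% of all genes below the filter. Dhrs9 was higher, at 0.11 to 0.41 FPKM in KO and 0.01 to 0.1 FPKM in WT (exact permutation p = 0.00216), as was Adh1, at 0.02 to 0.16 FPKM in KO and at most 0.02 FPKM in WT (exact permutation p = 0.00433). Rdh12 was the lower one in KO, at 0.138 ± 0.0781 FPKM against 0.323 ± 0.102 FPKM in WT (SD, n = 6 each, exact permutation p = 0.00866).

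Of the cytochromes that degrade retinoic acid, only Cyp26b1 was tested. It was at 3.13 to 5.85 FPKM in KO libraries and 4.12 to 5.1 FPKM in WT libraries, with KO replicates 5 and 6 at 3.13 and 3.43 FPKM. The groups overlapped, and the difference of -0.03 ± 0.12 on the log2 scale did not pass (SE, limma adjusted p = 0.82). Cyp26a1, known as one of the most responsive targets of retinoic acid, was listed at 0 in all KO libraries and at up to 0.1 FPKM in WT. Cyp26c1 reached 0.14 FPKM in KO and 0.03 FPKM in WT.

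Receptors and cofactors moved both ways. Of 15 with a row, 14 were tested, 4 rose and 6 fell, with a median difference of 0.05 on the log2 scale. Rara, the retinoic acid receptor alpha gene, was at 6.74 to 8.98 FPKM in KO libraries and 14.29 to 15.89 FPKM in WT libraries, and fell by 0.90 on the log2 scale (SE 0.07, limma adjusted p = 1.1e-07). Rxrb, a retinoid X receptor, was at 7.26 to 9.51 FPKM in KO libraries and 14.63 to 15.6 FPKM in WT libraries, and fell by 0.82 (SE 0.07, limma adjusted p = 2.1e-07). Rara and Rxrb were lower in all 6 KO libraries, KO replicates 5 and 6 included, where 46.4% of tested genes were fully separated in either direction. Rxra rose 1.20-fold to 18 ± 0.919 FPKM in KO, against 15.1 ± 0.681 FPKM in WT (SD, n = 6 each). Rarg, the most abundant receptor of this family here, was at 26.2 ± 3.29 FPKM in KO and 24.7 ± 0.438 FPKM in WT (SD, n = 6 each) and did not pass (limma adjusted p = 0.45). Among cofactors, Ncoa2 fell 1.32-fold, Ep300 rose 1.43-fold, and Ppard, a nuclear receptor that can bind retinoic acid, rose 1.29-fold.

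Genes known to respond to retinoic acid also moved both ways. Of 18 with a row, 13 were tested, 8 rose and 4 fell, with a median difference of 0.54 on the log2 scale. Ets1, Btg2 and Nr2f2 rose 2.27-, 2.08- and 2.39-fold, with all 6 KO libraries above all WT libraries. Full separation in either direction was found in 46.4% of tested genes. Zfp703 fell 3.59-fold and Egr1 1.85-fold. Tgm2, tissue transglutaminase, was singled out after its values were seen. It was at 117.75 to 128.76 FPKM in KO replicates 1 to 4, at 25.94 and 32.28 FPKM in KO replicates 5 and 6, and at 22.15 to 23.82 FPKM in WT libraries, and rose by 1.67 ± 0.38 on the log2 scale (SE, limma adjusted p = 0.0018). KO replicates 5 and 6 were thus just above WT, whereas for Dhrs3 and Stra6 they lay within the WT range.

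**Figure D4:**
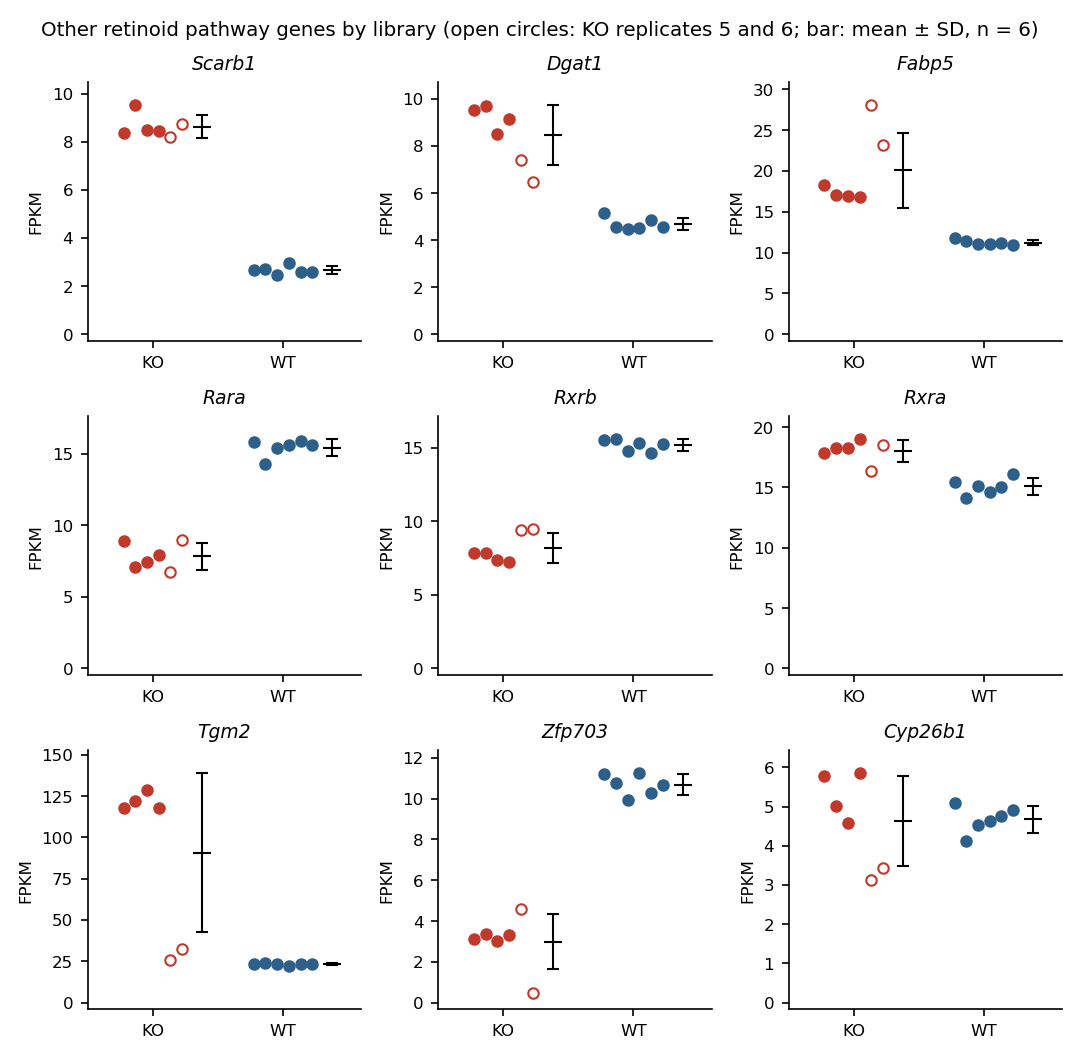
FPKM of 9 other genes of the pathway in each library, KO at left and WT at right, each on a linear axis from 0. Filled red circles are KO replicates 1 to 4, open red circles KO replicates 5 and 6, blue circles WT, and the black bar is the mean ± SD of 6 libraries. Tgm2 is split between the filled and the open circles, whereas Scarb1, Rara and Rxrb hold all 6 KO libraries on one side of WT. The same held for 46.4% of tested genes.

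The genes most like Aldh1a1 and Aldh1a2 over the 12 libraries were sought by Pearson's r of log2(FPKM + 1). Most like Aldh1a2 were Jph2, Maged1 and Cd248, each with r of at least 0.999, and 698 tested genes reached an r of 0.95. Most like Aldh1a1 were Cd82, Cxcl12 and Herpud1, with r of 0.996, 0.995 and 0.991, and 267 tested genes reached 0.95. The libraries fall into WT, KO replicates 1 to 4 and KO replicates 5 and 6, so these values describe a pattern over these sets that many genes share. Cd248, for example, was at 53.48 to 55.46 FPKM in KO replicates 1 to 4, at 19.81 and 23.28 FPKM in KO replicates 5 and 6, and at 6.98 to 7.7 FPKM in WT libraries.

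Markers of other cell types also differed between the genotypes, in both directions within a list. Aldh1a2 is known from mesothelial and some fibroblast cells. The summed level of 8 fibroblast markers was 1175.12 to 1272.77 FPKM in KO replicates 1 to 4, 504.27 and 722.04 FPKM in KO replicates 5 and 6, and 830.68 to 880.22 FPKM in WT. Of the 6 tested, Pdgfra, Col3a1 and Dpt rose and Col1a2 fell, while Lum and Pi16 were at most 0.09 FPKM. Col3a1 and Dpt, and Wt1, Upk3b and Csf1r below, passed the filter through their KO values alone. A difference in these genes was therefore bound up with the filter. With all genes of the table in the fit, of which 34.1% passed, each was higher in KO (limma adjusted p at most 5.2e-06). Col1a1, which made up most of the sum, and Dcn did not pass (limma adjusted p = 0.069 and 0.73). Col3a1 was at 140.79 to 154.74 FPKM in KO replicates 1 to 4 and 19.57 and 25.31 FPKM in KO replicates 5 and 6. In WT it was at 0.44 to 0.71 FPKM. Dpt, a dermatopontin gene of fibroblasts, was at 18.59 to 19.18 FPKM in KO replicates 1 to 4, at 9.46 and 7.82 FPKM in KO replicates 5 and 6, and at most 0.17 FPKM in WT. The summed level of 11 mesothelial and epithelial markers was 50.28 to 75.4 FPKM in KO and 151.85 to 160.54 FPKM in WT. Wt1, Upk3b and Upk1b were higher and Cdh1, Krt19 and Msln lower in KO. Cdh1 was at 0.48 to 1.18 FPKM in KO and 63.33 to 67.56 FPKM in WT. Krt19 was at 39.34 to 58.52 FPKM in KO and 73.05 to 83.42 FPKM in WT. Cdh1 and Krt19 together made up most of the WT sum. Epcam was at most 0.15 FPKM in any library. The 6 endothelial markers summed to 0.59 to 0.99 FPKM in KO and 0.13 to 0.3 FPKM in WT. Most of that sum in KO was Kdr, at 0.4 to 0.81 FPKM in KO and at most 0.01 FPKM in WT, whereas Pecam1 was at 0.06 to 0.13 FPKM in KO and 0.07 to 0.22 FPKM in WT, and Cdh5 at most 0.01 FPKM. Of the macrophage markers, Csf1r and Cd68 rose by limma, Lyz2 was higher by exact permutation (p = 0.00216), and the 6 summed to 8.4 to 14.86 FPKM in KO and 2.09 to 2.93 FPKM in WT, while Ptprc was at most 0.04 FPKM and Adgre1 at most 0.02 FPKM. The 9 contractile smooth muscle markers summed to 86.41 to 96.01 FPKM in KO replicates 1 to 4, 155.01 and 168.77 FPKM in KO replicates 5 and 6, and 123.86 to 152.6 FPKM in WT. Acta2 and Smtn made up nearly all of that sum and neither passed (limma adjusted p = 0.14 and 0.29). Of the other 7, all below the filter, 5 were higher in KO by exact permutation, beside 12.7% of all genes below the filter. Lmod1 was at 0.46 to 0.72 FPKM in KO and at most 0.06 FPKM in WT. Tagln was at 0.27 to 1.32 FPKM in KO and 0.06 to 0.37 FPKM in WT. Cnn1, Des and Myocd, the rest of the 5, reached at most 0.24, 0.23 and 0.1 FPKM, close to 0. In bulk RNA, a change in the number of cells of a type and a change in RNA per cell cannot be told apart, and the part of cell make-up in the results above was not tested.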

How the data were processed

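RNA was measured in 6 KO and 6 WT libraries. Per the labels' protocols, polyadenylated RNA was sequenced in pairs with dUTP strand marking. No source used here says whether counting used strand. Tools listed, per the submitters' processing notes and without roles, are HISAT2 2.0.4, StringTie 1.3.4d, edgeR, DESeq2 and cutadapt 1.9, and the build is mm9. The deposited FPKM were made by the authors and are given to 2 decimals. Beside them stand the authors' own comparison columns: a q-value, a p-value, and the WT over KO ratio also as log2. Their test is not stated. Depth is unknown.

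From these, log2(FPKM + 1) was modelled on genotype (limma 3.58.1 under R 4.3.3, variance trend on). Genes under 1 FPKM in more than 6 libraries were compared by exact permutation. The tests were checked on simulated data. Gene positions are from GENCODE M21 (GRCm38) by gene ID, and promoters from RefSeq (GRCm38.p6), not the build the notes name. No column belonged to another series, and at most 3.37% of tested genes agreed within 0.01 FPKM in any pair of libraries. The members and lists were chosen with earlier results of these data known. Beside the members and Cth, named genes are up to 3 called genes per list and direction with the smallest p and the 3 genes most like Aldh1a1 and Aldh1a2; markers, Tgm2, Fabp5, Rbp4, Dhrs4, Dhrs9, Adh1, Rdh12, Rarg, Lrat and the Cyp26 genes were added after their values were seen. Some genes this rule would name were left out. Alternatives changed the pseudocount, filter, scaling, variance trend, test and replicate block, and left out each library. The alternative with KO replicates 1 to 4 only was added after seeing the data.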

Additional observations from a re-analysis of the deposited data

Results flagged for a closer look

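Of 54 sets of 6 values checked, those of each member and named gene in each genotype, 3 held a library far from the rest, where chance gives about 1 in 20. Ppard was at 5.87 FPKM in KO replicate 6, against 3.88 to 4.08 FPKM in the other KO libraries. Ep300 was at 17.16 FPKM in KO replicate 6, against 10 to 12.45 FPKM in the other KO libraries. Rara was at 14.29 FPKM in WT replicate 2, against 15.37 to 15.89 FPKM in the other WT libraries. None of the 9 retinoid genes was among them; the gap of KO replicates 5 and 6 is shared by a pair of libraries, which a check for a single far value does not pick up.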

How the results depend on the processing

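Aldh1a1, Aldh1a2, Aldh1a3 and Rdh10 kept direction and side of the threshold in all 22 alternatives run for each. Aldh1a2 passed the filter through its KO values alone and Aldh1a3 through its WT values alone. Alternatives that kept this filter were therefore no separate checks of Aldh1a2 and Aldh1a3. Leaving out any KO library moved Aldh1a2 from limma to an unadjusted exact permutation test, and leaving out any WT library did so for Aldh1a3. Their 22 alternatives thus mix both tests. Leaving out each library in turn gave 4 to 5 members higher and 2 lower, and 19 to 23 listed pathway genes higher and 9 to 10 lower. Of all genes, 3354 to 3855 were higher and 3235 to 3845 lower. The member counts include unadjusted exact permutation calls for members under the filter, whereas the other counts hold limma calls only. They are therefore unlike counts. With all libraries, 63.5% of tested genes passed by limma and 20.4% of genes below the filter by exact permutation. With at least 5 FPKM required, where fewer genes are tested, 2505 genes were called higher and 2270 lower. With the replicate number as a block, 2 members were called higher in place of 4: Dhrs3 and Stra6 each had an exact sign-flip p of 0.062, and the block changed no other member's call. The numbers do not pair the libraries, since the deviations of libraries with the same number correlated at -0.27 to -0.058 and no KO library was closest to its own number. The Crabp2 difference was 0.18 with a pseudocount of 0.01, and between -0.062 and 0.0093 when each library was left out, with the positive end without WT replicate 5; the cause was not tested. With quantile normalization 45.5% of called genes were higher, against 51.3%. Levels near the 0.01 FPKM step (Rarb, Stra6, Crabp1, Crabp2) limit what can be read from them.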
